A study of Mus musculus with 12 samples.

Results

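Macrophages that had received the STING inhibitor C-178 and the STING agonist CMA together were compared with macrophages that had received neither. The 6 libraries of this comparison, 3 with C-178 plus CMA and 3 without stimulation, were chosen by their labels from the 12 libraries of the series. All 12 were made from primary bone marrow derived macrophages of wild-type C57Bl/6 mice, labelled as passage 1, and treatment lasted 2 h by the labels of the treated groups. The other 6 libraries, 3 with C-178 alone and 3 with CMA alone, entered the fit and serve as points of reference. Doses, the order in which the compounds were added, any vehicle in the unstimulated cells and the number of mice or cultures are not stated in the sources used here. The extraction text of the labels speaks of embryonic fibroblasts (MEF), whereas the source, the titles and the design text speak of macrophages.

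STING is an adaptor in the membrane of the endoplasmic reticulum that binds the cyclic dinucleotide made by the DNA sensor cGAS. It then recruits the kinase TBK1, which phosphorylates the transcription factor IRF3, and it also feeds into the NF-κB pathway. IRF3 and NF-κB switch on interferon beta and chemokines, and secreted interferon acts through its receptor, STAT proteins and IRF9 on a second, larger set of interferon-stimulated genes. CMA is a small acridanone that activates mouse STING, and C-178 is an inhibitor that binds STING covalently. The comparison asks how far from the resting state the jointly treated cells were, and in which genes.

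Short stretches before the start sites of 6 genes on which the results turn are shown to make the elements named above visible. They were read from RefSeq promoters of the build GRCm38.p6, 5′ to 3′ on the strand of the gene and ending at the base before the start site. Capitals mark matches on either strand to the interferon-stimulated response element searched as GAAANNGAAA, to which IRFs and the STAT complex bind, and to an NF-κB site searched as GGGNNNTTCC. By these patterns, Ifit1, Isg15 and Rsad2 hold interferon-stimulated response elements, Ifnb1 and Tnfaip3 hold NF-κB sites, and Cxcl10 holds both. IRF elements of another spacing are not marked. A stretch without a match to the response element, such as that of Ifnb1, may therefore still hold one.
Ifit1 (chr19:34640759-34640888, plus strand): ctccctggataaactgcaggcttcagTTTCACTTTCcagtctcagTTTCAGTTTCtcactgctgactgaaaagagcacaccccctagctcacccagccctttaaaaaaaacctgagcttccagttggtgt
Isg15 (chr4:156200819-156200948, minus strand): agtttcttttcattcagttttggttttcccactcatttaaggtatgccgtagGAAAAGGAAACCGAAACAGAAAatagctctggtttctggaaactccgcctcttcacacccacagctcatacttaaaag
Rsad2 (chr12:26456453-26456582, minus strand): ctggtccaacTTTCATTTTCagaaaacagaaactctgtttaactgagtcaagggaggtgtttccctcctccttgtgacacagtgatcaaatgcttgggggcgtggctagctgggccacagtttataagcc
Ifnb1 (chr4:88522795-88522924, minus strand): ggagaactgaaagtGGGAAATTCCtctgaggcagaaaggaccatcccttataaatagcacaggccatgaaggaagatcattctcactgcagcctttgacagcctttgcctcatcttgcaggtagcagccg
Cxcl10 (chr5:92348890-92349109, minus strand): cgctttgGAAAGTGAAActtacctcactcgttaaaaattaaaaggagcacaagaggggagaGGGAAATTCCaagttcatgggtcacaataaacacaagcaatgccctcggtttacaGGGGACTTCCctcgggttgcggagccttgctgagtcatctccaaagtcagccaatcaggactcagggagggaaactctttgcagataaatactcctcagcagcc
Tnfaip3 (chr10:19015411-19015540, minus strand): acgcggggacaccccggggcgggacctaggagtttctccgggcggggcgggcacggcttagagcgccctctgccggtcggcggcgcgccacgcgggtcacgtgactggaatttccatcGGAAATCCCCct
Over the 250 bases before the start, the response element was matched in 17 of the 39 promoters found for the 50 largest rises in C-178 plus CMA over no stimulation (43.6%). It was matched in 0 of the 41 promoters found for the 50 largest falls, and in 3.6% of the promoters of the tested genes and 3.5% of all 27025 promoters. The NF-κB site was matched in 12.8% of the promoters of the rises, 7.3% of those of the falls, 6.3% of those of tested genes and 5.3% of all. The antioxidant response element core bound by NRF2, searched as TGACNNNGC, was matched in 15.4%, 14.6%, 14.1% and 11.5%. A match describes letters in a window and is not a bound site.

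The unit of the levels below is the normalised count, that is, reads per gene divided by the factor of the library. Libraries held 13.907, 17.449 and 16.168 M reads without stimulation, and the jointly treated libraries held 36.438, 8.813 and 7.766 M. Because 2 unstimulated columns share a heading, their group is numbered 1, a and b here, with values in that order. The labels do not say whether libraries came from separate cultures, so the p values measure the spread between these libraries, which may be technical. In bulk samples fewer cells of a type and less RNA per cell cannot be told apart. Macrophage transcripts dominated both groups, with summed normalised counts over the 24 tested macrophage markers of 649181 to 663713 without stimulation and 738735 to 830462 with both compounds. The lysozyme gene Lyz2 stood at 196993, 217178 and 220485 without stimulation and at 297219, 235289 and 216986 with both compounds, where the groups overlapped. The 17 fibroblast markers, of which 14 were tested, summed to 1641 to 1784 and 976 to 2480 respectively.

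The 3 libraries with C-178 plus CMA were less alike than those of any other group. The median over genes of the SD of log2 values was 0.34 in this group, against 0.115 without stimulation, 0.179 with C-178 and 0.148 with CMA. On the first principal component (66% of the variance) the unstimulated libraries lay between -49 and -46.2, the CMA libraries between 62.3 and 76.5, and the jointly treated libraries between them at 25.2, 38.4 and 10.3. On the second component (14.4%) library 3 stood apart at 63.9, with libraries 1 and 2 at 30.1 and 0.7. Of 8129 genes with a mean of at least 100 normalised counts in the jointly treated libraries, 111 had an SD of log2 values of at least 1, against 0 of 8125 without stimulation. In 74 of the 111 library 3 was the one apart and low, and in 13 it was apart and high. Deviations of single libraries from the mean of the group also followed transcript length over 11360 genes, with Spearman's rho of -0.019 for library 1, 0.51 for library 2 and -0.42 for library 3. These rho values are descriptions across genes, which share libraries and are not replicates.

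The genes that differed most among the jointly treated libraries included secreted products of inflamed macrophages. Saa3, an acute-phase serum amyloid, stood at 1468, 2077 and 1790.5 normalised counts without stimulation and at 1822, 2100.4 and 40937 with both compounds. Libraries 1 and 2 thus lay within or next to the unstimulated values and library 3 far above them, and the change did not pass the test (log2 change 1.61 (SE 0.83), adjusted p = 0.19). Cst7, a cysteine protease inhibitor, stood at 22.8, 30.4 and 24.7 and at 39.1, 52.8 and 946, with library 3 again far above the others (adjusted p = 0.0706). The chemokine gene Ccl5 was above all unstimulated libraries (404, 673 and 462) in every jointly treated library (2183, 2729 and 34420.4), and the highest value was again that of library 3. Its log2 change of 3.55 (SE 0.73) passed with all 3 libraries (adjusted p = 0.00288) and without library 3 (adjusted p = 1.13e-05). Mmp13, a collagenase, went the other way among the libraries, with 1127, 2025 and 149.7, but each value lay above the unstimulated 44.1, 31.1 and 36.1 (log2 change 4.22 (SE 0.66), adjusted p = 0.000366).

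**Figure D1:**
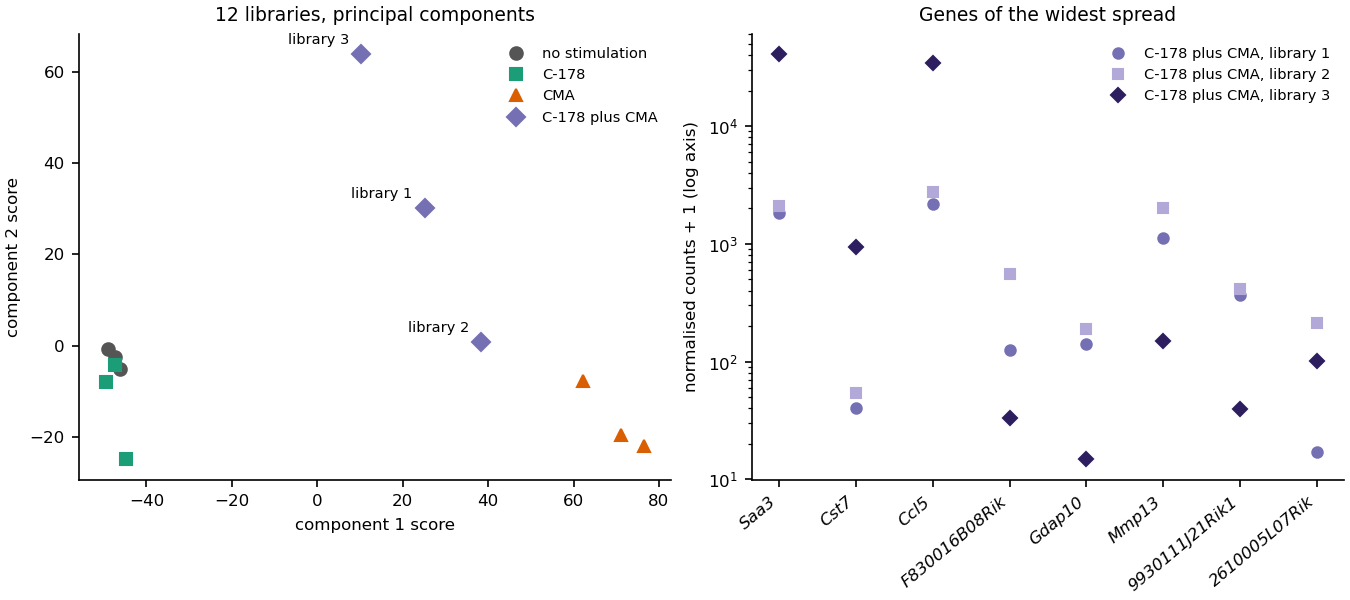
Left, scores of the 12 libraries on the first and second principal components of log2 levels, with groups by colour and shape. Right, normalised counts + 1 on a log axis in the 3 libraries with C-178 plus CMA for the 8 genes of the widest spread there. Library 3 lies at 63.9 on component 2 and is the highest for Saa3, Cst7 and Ccl5.

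Over all tested genes, the jointly treated cells were far from the resting state in both directions. Of 11440 genes, 1265 were higher (11.1%) and 1199 were lower (10.5%) with C-178 plus CMA than without stimulation, at an adjusted p under 0.05 by limma. Of these, 630 and 463 differed by at least 2-fold. The 2 groups did not overlap in 3947 of the 11440 genes (34.5%). Absence of overlap, given for single genes here, is thus common and adds little to a call. The largest rises were those of Cxcl10, Cd69 and Socs1, with log2 changes of 8.34, 7.29 and 6.68, and the largest falls those of Gpr183, Kcnj2 and Pdgfb, with -3.53, -3.51 and -3.15. The median log2 change over all tested genes was 0.00464, so that the medians given for gene groups below are read against a value near 0. For comparison, CMA alone against no stimulation gave 2224 higher and 2047 lower genes (19.4% and 17.9%) from the same unstimulated libraries. Against CMA alone, 1217 genes were higher (10.6%) and 1543 lower (13.5%) with both compounds, and these counts were 261 and 593 with those 2 groups fitted alone and 527 and 929 with a spread of its own for each group. Against C-178 alone, 1548 were higher (13.5%) and 1440 lower (12.6%), with 738 and 600 when those 2 groups were fitted alone and 971 and 791 with a spread for each group. The fit takes a common spread per gene over all groups, whereas the jointly treated libraries varied most. With the 2 groups fitted alone 809 genes were higher (7.07%) and 722 lower (6.31%), with a spread of its own for each group 937 (8.19%) and 821 (7.18%), and without library 3 of the jointly treated cells 1567 and 1355. Quantile normalisation shifted the balance of the calls, to 1168 higher and 1615 lower.

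**Figure D2:**
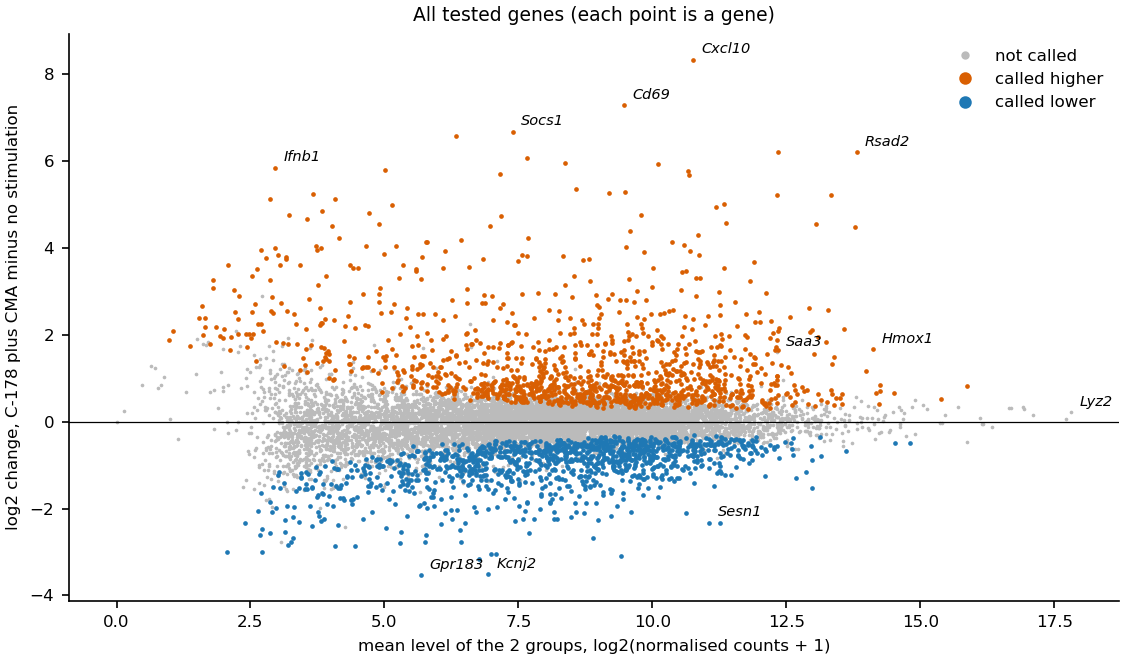
Each point is a tested gene, with the mean level of both groups on the x axis (log2 of normalised counts + 1) and the log2 change of C-178 plus CMA minus no stimulation on the y axis. The 1265 genes called higher reach a change of 8.34 (Cxcl10), and the 1199 called lower reach -3.53 (Gpr183).

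Beside interferon targets, the 15 largest rises and falls held genes of activation, protease control and signalling. These genes were picked from those with a call and with separate groups. Both features thus hold by choice, wherever such a gene is named. Cd69, an early activation antigen that retains leukocytes in tissue, stood at 51.7, 50.2 and 60.1 normalised counts without stimulation and at 11057, 11840.2 and 4857 with C-178 plus CMA, and CMA alone gave 29121, 41118 and 35385. The groups were separate by that choice, and the lowest jointly treated value was that of library 3 (log2 change 7.29 (SE 0.26), adjusted p = 5.68e-10). The protease inhibitor genes Serpina3f and Serpina3g rose by 6.57 (SE 0.41) and 6.07 (SE 0.23) on the log2 scale. Cmpk2, a mitochondrial nucleotide kinase and a member of the interferon-stimulated gene list, rose by 6.21 (SE 0.31). Serpina3g stood at 23.6, 22.7 and 22.8 and at 1774, 2269 and 1042. Among the falls, Pdgfb, a platelet-derived growth factor chain, went from 349.7, 310.5 and 302 to 39.1, 25.7 and 42.8 and Nuak1, a kinase of the AMPK family, from 369, 365 and 329.6 to 35.1, 32.8 and 64.2. By the same choice, every jointly treated library lay below every unstimulated one for both genes. The log2 changes were -3.15 (SE 0.25) (adjusted p = 6.03e-07) for Pdgfb and -3.04 (SE 0.25) (adjusted p = 1.10e-06) for Nuak1. CMA alone gave 26.4, 49.3 and 51.4 for Pdgfb and 36.3, 27.6 and 20.2 for Nuak1, and neither gene passed the test against CMA (adjusted p = 0.55 and 0.0924). Gpr34, a lysophosphatidylserine receptor, and Relt, of the TNF receptor family, fell with log2 changes of -2.79 (SE 0.40) and -2.77 (SE 0.32), and Cdr2 and Kctd12b with -2.35 (SE 0.28) and -2.56 (SE 0.26). Fam43a stood at 243, 241 and 189 without stimulation and at 27.5, 38.5 and 30.6 with both compounds, below C-178 alone (105, 67.8 and 116) and CMA alone (64.3, 90.8 and 58.7).

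Interferon beta itself was switched on, at a low level. Ifnb1, the main interferon gene of the first wave (chr4:88522025-88522774, GRCm38), had no reads in any unstimulated library and stood at 54, 40 and 84 normalised counts with C-178 plus CMA. All jointly treated libraries were thus above all unstimulated ones, and the mean of 59.4 ± 22.5 (SD, n = 3) is at least 90.4-fold above the floor of 3 reads over the unstimulated group (0.6563 normalised counts). CMA alone gave 1424, 2210.5 and 1629.9, and C-178 alone 0.717, 3.01 and 2.91. The change over no stimulation passed the test (adjusted p = 6.77e-08), and so did the difference of -4.90 (SE 0.36) on the log2 scale from CMA alone (adjusted p = 3.73e-06). Of 18 type I interferon genes in the deposited table, 3 passed the filter, and the other tested members, Ifna2 and Ifna4, had means of 0 without stimulation and 0.951 and 0.221 with both compounds.

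The 62 interferon-stimulated genes, like the other gene groups, were listed with earlier results of these data known. Their calls are thus not independent of that choice. All 62 passed the filter on low values. All were higher with C-178 plus CMA than without stimulation, where 11.1% of all genes were. Their median log2 change was 2.33. Their mean level per library was 9.79 to 10.16 without stimulation and 12.32 to 12.97 with both compounds on the log2 scale, with 13.16 to 13.44 under CMA alone and 9.64 to 10.07 under C-178 alone. Ifit1, which encodes a protein that binds foreign RNA ends, stood at 2018, 1381 and 1622 normalised counts in the unstimulated and at 70595, 80749 and 41206 in the jointly treated libraries. Rsad2, the gene of the antiviral enzyme viperin, stood at 1935, 1318 and 1637 and at 140774, 168211 and 71159. Both genes were higher in every jointly treated library than in any unstimulated one, and library 3 held the lowest of the 3 values. The log2 changes were 5.22 (SE 0.27) for Ifit1 (adjusted p = 1.29e-08) and 6.21 (SE 0.28) for Rsad2 (adjusted p = 4.68e-09). Isg15, a ubiquitin-like modifier, rose from 484, 305 and 318 to 8722, 4792 and 5487, and CMA alone gave 7459.6, 8429.7 and 7832. The jointly treated and the CMA values of Isg15 overlapped (difference -0.37 (SE 0.25), adjusted p = 0.291). Oasl1, of the oligoadenylate synthetase family, rose from 271, 201 and 210.1 to 11474, 10307 and 13316, a log2 change of 5.68 (SE 0.17) (adjusted p = 1.13e-10). Against CMA alone, 34 of the 62 genes were lower with both compounds and 1 was higher, where 13.5% and 10.6% of all genes were.

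The interferon-inducible GTPases, which attack vacuoles that hold pathogens, had the highest median change of the gene groups described here. Of 16 tested members 15 were higher with C-178 plus CMA, where 11.1% of all genes were, and the median log2 change was 3.88. Gbp5, a guanylate-binding protein linked to inflammasome activation, stood at 149, 121 and 132 normalised counts without stimulation and at 8677, 14026 and 4539.6 with both compounds. Its lowest jointly treated value, that of library 3, was far above its highest unstimulated value (log2 change 5.93 (SE 0.30), adjusted p = 9.39e-09). CMA alone gave 27341, 37498 and 34104, and the jointly treated cells differed from that by -1.99 (SE 0.30) on the log2 scale (adjusted p = 0.000608). Tgtp2, a T-cell-specific GTPase, rose from 195, 180.3 and 159 to 2523, 3932 and 2504, while its values under CMA alone were 3051, 3841 and 3605. Its difference from CMA of -0.26 (SE 0.19) did not pass the test (adjusted p = 0.332). Several of these genes, and Serpina3f, Serpina3g and the Ifit family, have close copies in the mouse genome, so that their counts may hold reads of a copy.

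Chemokines were the group with the single largest rise. Cxcl10, which recruits T cells through CXCR3 (chr5:92346638-92348889, GRCm38), stood at 124, 66.3 and 100.6 normalised counts without stimulation and at 34067, 31751 and 26609.5 with C-178 plus CMA. The jointly treated values differed little among themselves and lay 318-fold above the unstimulated mean (log2 change 8.34 (SE 0.21), adjusted p = 2.43e-11). With CMA alone the values were 71631, 92359 and 83458, and the jointly treated cells were lower by a log2 difference of -1.42 (SE 0.21) (adjusted p = 0.000581). Cxcl9, another ligand of CXCR3, rose from 27.4, 23.9 and 20.9 to 499, 1669 and 354 but stood at 18728, 32455 and 23878 with CMA alone. It lay 4.74 (SE 0.43) above no stimulation (adjusted p = 2.38e-06) and -5.19 (SE 0.43) against CMA (adjusted p = 7.77e-06). The monocyte attractants Ccl2, Ccl7 and Ccl12 rose by 3.91, 3.81 and 5.70 on the log2 scale. Ccl2 stood at 240.2, 240.0 and 225 and at 3811, 3231 and 3637, and the groups were far apart. In all, 10 of 19 tested chemokine genes were higher and 2, Ccl6 and Ccl22, were lower, where 11.1% and 10.5% of all genes were. The median over the 19 genes was 2.14. Hdc, which makes histamine and was listed among mast cell markers, rose from 4.56, 5.37 and 5.69 to 119, 97.1 and 88.6, while the mast cell proteases Mcpt4 and Tpsb2 had no reads in either group and Cpa3 had means of 1.05 and 0.808.

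Cytokine genes rose less evenly. Of 23 tested cytokines and ligands of the TNF family 11 were higher and 1 was lower, where 11.1% and 10.5% of all genes were. The median log2 change was 0.79. Il6, the gene of a fever-inducing cytokine, stood at 5.32, 4.18 and 5.06 normalised counts without stimulation and at 55.4, 91.4 and 67.2 with both compounds, so that the groups did not overlap (log2 change 3.60 (SE 0.53), adjusted p = 0.000205). CMA alone gave 562, 724 and 608. Tnfsf10, the death ligand TRAIL, rose from 54, 58.5 and 53.1 to 2914, 3785 and 1128 and Il15, a growth factor of natural killer cells, from 189, 207 and 204 to 1758, 1197 and 932. Neither passed the test against CMA alone, with log2 differences of -0.71 (SE 0.36) (adjusted p = 0.156) and -0.34 (SE 0.19) (adjusted p = 0.195). Il27 and Tnfsf15 rose by 4.04 and 4.14. Tnf stood at 769, 597 and 548 without stimulation, at 872, 1268 and 1256 with both compounds and at 4762, 8209 and 6629.8 with CMA alone. Its rise over no stimulation was small (log2 change 0.82 (SE 0.21), adjusted p = 0.0107), and it did not pass with a spread of its own for each group (adjusted p = 0.0581), without unstimulated library b (0.055) or after removal of a trend with length and GC (0.0538). Il1b, the precursor of a pyrogenic cytokine, was the member that fell, from 120.1, 116 and 143 to 61.7, 81.4 and 82.5, whereas it stood at 224, 219 and 226 with CMA alone (log2 change -0.75 (SE 0.16), adjusted p = 0.00339).

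**Figure D3:**
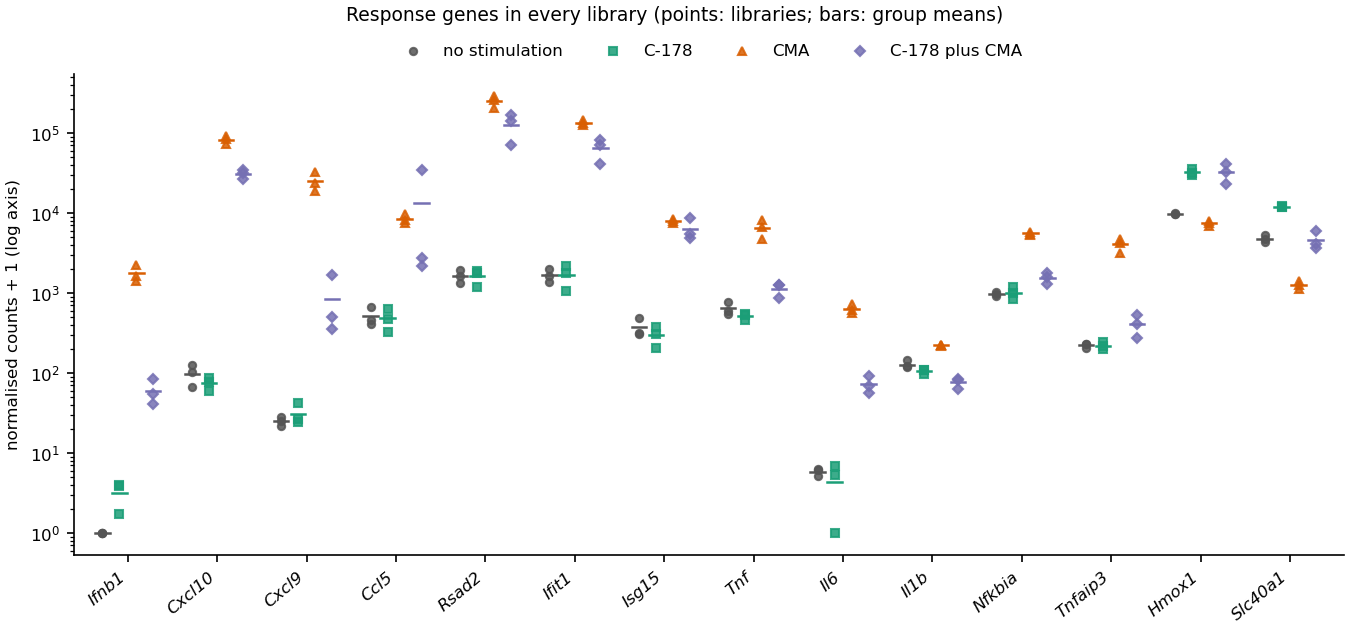
Normalised counts + 1 on a log axis for 14 genes in every library of the 4 groups. Points are libraries and short bars are group means. With C-178 plus CMA, Cxcl10, Rsad2 and Ifit1 lie far above no stimulation, Tnf, Nfkbia and Tnfaip3 lie close to it, Il1b lies below it, and Hmox1 lies at the level of C-178 alone.

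The NF-κB targets and feedback inhibitors had a median log2 change of 0.37 from no stimulation, beside 2.33 for the interferon-stimulated genes. With CMA alone these medians were 1.38 and 2.84 from the same unstimulated libraries, so the 2 groups differed there as well. Of 35 tested members 12 were higher and 6 lower than without stimulation, where 11.1% and 10.5% of all genes were. Against CMA alone 30 were lower, where 13.5% of all genes were. Nfkbia, which encodes the inhibitor IκBα and is itself induced by NF-κB, stood at 1039, 924 and 962 normalised counts without stimulation, at 1281, 1749 and 1594 with both compounds and at 5333, 5826 and 5483 with CMA. The jointly treated values were just above the unstimulated ones (log2 change 0.65 (SE 0.14), adjusted p = 0.00458), a call lost when the length and GC trend was removed (adjusted p = 0.0747). Tnfaip3, the ubiquitin-editing inhibitor A20, stood at 232, 205 and 229, 412, 533 and 269 and 3166, 4770.4 and 4209 in the same order of groups. Its change of 0.81 (SE 0.22) over no stimulation (adjusted p = 0.0157) was lost with the 2 groups fitted alone (0.0625) and without unstimulated library a (0.0647). The members with the firmest rises, Irf1, Peli1, Cd40 and Ripk2, moved by 2.98, 2.55, 3.69 and 1.76. Irf1, a transcription factor that interferon also induces, stood at 889.5, 866 and 805 and at 7860.5, 8065 and 4865, with no overlap. The members that fell were Tnip1, Bcl3, Cd83, Ier3, Zc3h12a and Malt1. With the 2 groups fitted alone, 9 members were higher and 1 was lower.

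Genes that end cytokine signals were mostly higher. Socs1, which blocks Janus kinases, stood at 23.6, 15.5 and 7.59 normalised counts without stimulation and at 2485, 1768 and 848 with C-178 plus CMA, against 2235, 2118 and 2238 with CMA alone. Its rise of 6.68 (SE 0.44) (adjusted p = 1.17e-07) passed the test, and its difference from CMA did not (-0.50 (SE 0.44), adjusted p = 0.412). Usp18, which removes Isg15 from proteins and blocks the interferon receptor, stood at 433, 347 and 432 and at 12004, 7426 and 5585, and at 7046, 8171 and 7729 with CMA, where the values overlapped. Of 12 signal inhibitors 7 were higher and 2, Pim2 and Ptpn6, were lower, where 11.1% and 10.5% of all genes were. Pim2, a survival kinase, fell from 889.5, 881 and 757 to 294, 351 and 475 (log2 change -1.20 (SE 0.16), adjusted p = 7.78e-05).

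The gene of the target itself did not pass the test. Tmem173, which encodes STING, stood at 549.6, 670.0 and 652 normalised counts without stimulation and at 687, 581 and 484 with both compounds, with overlapping groups (log2 change -0.10 (SE 0.15), adjusted p = 0.669). Upstream of it, the DNA sensor gene Mb21d1 (cGAS) rose from 201, 157 and 182 to 828, 1302 and 706, a log2 change of 2.35 (SE 0.20) (adjusted p = 1.46e-06). Trex1, the exonuclease that degrades cytosolic DNA, rose by 1.90, the DNA-binding Ifi204 by 2.11 and the RNA editor Adar by 1.65. In all 10 of 26 tested STING pathway genes were higher and 3 were lower, where 11.1% and 10.5% of all genes were. The lower ones were Ulk1 and the interferon receptor chains Ifnar1 and Ifnar2, and their number was near the share of all genes. Among 19 interferon regulatory factors and STATs 9 were higher and 1, Irf4, was lower, against the same shares of all genes. Irf7, the master factor of the late interferon wave, stood at 3219, 2989 and 2938 and at 16042, 15294 and 27124, and at 17229.9, 21039.6 and 19309.5 with CMA alone, with a difference from CMA of -0.02 (SE 0.18) (adjusted p = 0.934). Batf2 and Irf9 rose by 3.81 and 0.97. With the 2 groups fitted alone, 6 of the 26 STING pathway genes were higher and 2 lower.

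Most genes of antigen presentation by MHC class I rose. Of 19 tested members 13 were higher with both compounds than without stimulation, where 11.1% of all genes were (median log2 change 0.87). Against CMA alone 3 were higher and 1 was lower, where 10.6% and 13.5% of all genes were. Tap1, a chain of the peptide transporter, stood at 929, 866 and 878 normalised counts without stimulation and at 6235, 5146 and 3509.7 with both compounds, against 5422, 7001 and 6539.9 with CMA. The groups with and without stimulation did not overlap (log2 change 2.44 (SE 0.18), adjusted p = 2.81e-07), while the difference from CMA did not pass (adjusted p = 0.125). The immunoproteasome subunit Psmb10 and the non-classical class I gene H2-T23 rose by 1.68 and 1.53. Of 9 class II genes 2 were higher, where 11.1% of all genes were. H2-Aa stood at 176, 171 and 169.6 and at 339.5, 239.9 and 446 (log2 change 0.94 (SE 0.22), adjusted p = 0.00795), and H2-Eb1 rose by 0.59 in a call that 5 of 26 alternatives lost.

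Sensors and effectors of inflammatory cell death rose in part. Of 20 tested members 11 were higher and 2, Nlrp3 and Nlrc4, were lower, where 11.1% and 10.5% of all genes were. Casp4, the receptor and protease of the non-canonical inflammasome, stood at 137, 114 and 139.8 normalised counts and at 991, 1332 and 674, and Zbp1, a sensor of Z-form nucleic acid, at 1212, 836 and 866 and at 5564, 7909 and 5289.8. Neither gene overlapped between the groups, with log2 changes of 2.88 (SE 0.23) (adjusted p = 6.84e-07) and 2.68 (SE 0.19) (adjusted p = 3.04e-07). Mlkl, the pore former of necroptosis, and the peptidoglycan sensor Nod2 rose by 1.88 and 1.81. In the BCL2 family the death-promoting members Bmf and Bcl2l11 (Bim) fell. Bmf went from 356, 383 and 388 to 69.6, 64.3 and 100.8, with 16.5, 1.97 and 3.67 under CMA alone, so that jointly treated cells lay between the groups without overlap (log2 change -2.28 (SE 0.46), adjusted p = 0.00241, and 3.64 (SE 0.46) against CMA, adjusted p = 0.000194). The family as a whole had 2 members higher and 3 lower of 14, against the same shares of all genes.

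Among enzymes that make effector metabolites, 6 of 19 were higher, where 11.1% of all genes were. Irg1, which makes itaconate, stood at 174, 157 and 161 normalised counts without stimulation, at 4577, 6524 and 2923 with both compounds and at 26844, 49423 and 39087 with CMA alone. It was higher than without stimulation (log2 change 4.75 (SE 0.28), adjusted p = 4.62e-08) and lower than with CMA (-3.07 (SE 0.28), adjusted p = 1.61e-05). Nos2, the inducible nitric oxide synthase, rose from 2.28, 1.79 and 1.9 to 37.5, 52.8 and 22.9. Gch1, which starts the synthesis of the cofactor of nitric oxide synthase, rose from 121, 98.5 and 106 to 704, 647 and 600.5 and was not distinguished from CMA, where it stood at 644, 728 and 775 (adjusted p = 0.463).

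Targets of NRF2 were higher in part. NRF2 is the transcription factor of the response to electrophiles, which is held in check by Keap1. Of 35 tested NRF2 targets 13 were higher and 1, Osgin1, was lower than without stimulation, where 11.1% and 10.5% of all genes were. Their median log2 change was 0.41, beside 0.44 with C-178 alone and -0.14 with CMA alone from the same unstimulated libraries, and 17 of the 35 were higher with both compounds than with CMA alone, where 10.6% of all genes were. Against C-178 alone 3 of the 35 were higher and 7 lower, where 13.5% and 12.6% of all genes were. Hmox1, the heme oxygenase gene, stood at 10027, 9567 and 9676 normalised counts without stimulation and at 32762, 22692 and 41374 with both compounds. C-178 alone gave 35379.8, 29685 and 31411 and CMA alone 8015, 6904 and 7375. The jointly treated values spanned those of C-178 alone and lay above both other groups (log2 change 1.68 (SE 0.18) over no stimulation, adjusted p = 1.25e-05, and -0.03 (SE 0.18) against C-178, adjusted p = 0.91). Srxn1, which repairs oxidised peroxiredoxins, rose from 927, 932 and 970.5 to 2025, 1365 and 1612 and Txnrd1, the thioredoxin reductase, from 2496, 2203 and 2169.5 to 4111, 3804 and 2889. Their log2 changes were 0.80 (SE 0.14) (adjusted p = 0.000989) and 0.64 (SE 0.14) (adjusted p = 0.00489), and Txnrd1 was lower than with C-178 alone (4863, 6122 and 5354, adjusted p = 0.00673). Gclm, a regulatory subunit of glutamate-cysteine ligase, had a change of 0.36 (SE 0.11) (adjusted p = 0.0314) that 12 of 26 alternatives did not call. Under quantile normalisation the median of the 35 genes was 0.21 with 9 members higher, and 6 members were higher with the 2 groups fitted alone. With the trend in length and GC content removed, the median was 0.25 with 14 members higher.

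Among genes of iron handling was one that the single treatments moved in opposite directions. Slc40a1, which encodes the iron exporter ferroportin, stood at 4273, 4724 and 5220.3 normalised counts without stimulation and at 6001, 3589.8 and 4142 with both compounds. The groups overlapped, and the log2 change of -0.08 (SE 0.17) did not pass the test (adjusted p = 0.782). C-178 alone gave 12136, 11788 and 11881 and CMA alone 1394, 1129 and 1241, so that the first lay above (adjusted p = 0.00373) and the second below no stimulation (adjusted p = 6.86e-07). The jointly treated cells lay below the first (-1.42 (SE 0.17), adjusted p = 2.77e-05) and above the second (1.84 (SE 0.17), adjusted p = 1.51e-05). Keap1 rose from 915, 769.7 and 752 to 1854, 2480.3 and 2866, and Bach1, the repressor of Hmox1, from 1449, 1346 and 1578 to 5207, 5382 and 2003. Ncoa4, which delivers ferritin to lysosomes, fell from 1542, 1692 and 1625 to 522, 739.7 and 463 (log2 change -1.52 (SE 0.15), adjusted p = 7.59e-06). Of 19 tested genes of iron and heme handling 4 were higher and 2 lower, where 11.1% and 10.5% of all genes were. Without library 3 of the jointly treated cells 4 were lower.

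Receptors for chemoattractants and lipid mediators made up the group with the lowest median. Of 28 tested members 16 were lower with C-178 plus CMA than without stimulation, where 10.5% of all genes were, and 1, Ccrl2, was higher, with a median log2 change of -1.10. Gpr183, which guides cells along oxysterols (chr14:121952551-121965195, GRCm38), stood at 166, 175 and 151 normalised counts without stimulation and at 16.9, 5.71 and 22.9 with both compounds. As one of the largest falls it was picked for separate groups, with every jointly treated library below every unstimulated one (log2 change -3.53 (SE 0.43), adjusted p = 4.03e-05). CMA alone gave 6.59, 5.92 and 1.84, a range that held the value of jointly treated library 2 (difference 1.42 (SE 0.43), adjusted p = 0.0308). S1pr1, which reads sphingosine phosphate, fell from 928, 907 and 996 to 264, 299.9 and 371 (log2 change -1.61 (SE 0.15), adjusted p = 3.05e-06). The chemokine receptor genes Ccr1, Ccr2, Ccr3, Cx3cr1, Cxcr2 and Cxcr4 were also among the members that fell. Without library 3 the median of the group was -0.77 and 15 members were lower.

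Of 25 tested transcription factors that shape myeloid cells 13 were lower and 2, Tfec and Mitf, were higher, where 10.5% and 11.1% of all genes were, with a median of -0.69. Id2, an inhibitor of helix-loop-helix factors, stood at 3857, 3303 and 3985 normalised counts without stimulation, at 1515, 1332 and 2160.5 with both compounds and at 771, 1064 and 975 with CMA alone. Every jointly treated library lay below every unstimulated one (log2 change -1.18 (SE 0.18), adjusted p = 0.000228). Egr2, a zinc finger factor, fell from 97.3, 83.6 and 63.3 to 20.2, 28.6 and 27.5. Spi1, Cebpa, Runx1 and Zeb2 were also among the members that fell. With the 2 groups fitted alone, 8 members were lower and 1 was higher.

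Genes linked to FOXO factors, which restrain growth, were lower in part. Of 23 tested members 11 were lower and 2 higher, where 10.5% and 11.1% of all genes were, with a median of -0.57. Sesn1, a sestrin that senses amino acids, stood at 4541, 4803 and 4802 normalised counts without stimulation and at 1212, 741 and 930.5 with both compounds, and CMA alone took it to 396, 300.0 and 354. It was lower than without stimulation (log2 change -2.32 (SE 0.16), adjusted p = 1.86e-07) and higher than with CMA (1.44 (SE 0.16), adjusted p = 8.13e-05). Cdkn1b, an inhibitor of the cell cycle, fell from 749, 649 and 722 to 138, 186 and 274, while Cdkn1a, an inhibitor induced by p53, rose from 6924, 6201 and 6459.7 to 15331, 15511 and 18664. Their log2 changes were -1.88 (SE 0.21) (adjusted p = 1.60e-05) and 1.33 (SE 0.12) (adjusted p = 1.95e-06). Of 21 p53 targets 2 were higher and 6 lower (1 and 3 with the 2 groups fitted alone). Of 32 genes of the cell cycle and replication 4 were higher, among them Pcna (0.99) and Mcm6 (0.85), and 1 was lower. The median of the 32 was -0.42, and it was -0.19 without library 3 of the jointly treated cells. The mean log2 level of the 32 was 7.76, 7.71 and 6.77 in jointly treated libraries 1, 2 and 3. Without stimulation it was 7.78 to 7.86. Under quantile normalisation 4 of the 32 were lower. The shares of all genes called higher and lower were 11.1% and 10.5%.

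RNA-binding factors that destabilise messages were among the strongest falls. Zfp36l1 and Zfp36l2 bind AU-rich elements and direct the decay of the message. Zfp36l1 stood at 2270.0, 1836 and 1792 normalised counts without stimulation and at 152, 273 and 279.6 with both compounds, below the 493, 369 and 386 of CMA alone. Zfp36l2 fell from 6789, 5525 and 4284 to 902, 1162 and 1199.5, and CMA alone gave 458, 355 and 402. Relative to CMA they thus lay on opposite sides, with -0.86 (SE 0.21) for Zfp36l1 (adjusted p = 0.0101) and 1.42 (SE 0.19) for Zfp36l2 (adjusted p = 0.000275). The log2 changes from no stimulation were -3.10 (SE 0.21) (adjusted p = 1.26e-07) and -2.33 (SE 0.19) (adjusted p = 8.14e-07). Of 18 regulators of mRNA decay 8 were lower and 2, Dcp2 and N4bp1, were higher, where 10.5% and 11.1% of all genes were.

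Immediate early genes split. Of 31 tested members 14 were lower and 4 higher, where 10.5% and 11.1% of all genes were. The median was -0.68, and it was -0.42 without unstimulated library 1. Myc fell from 192, 149.9 and 143 to 26.2, 54.3 and 26 normalised counts, and Rhob, a small GTPase of endosomes, from 1543, 1587 and 1489 to 497, 227 and 437. Both fell in every jointly treated library, with log2 changes of -2.23 (SE 0.27) (adjusted p = 3.41e-05) and -2.07 (SE 0.26) (adjusted p = 5.24e-05). Mafk, a small partner of NRF2, went the other way, from 226, 217 and 205 to 2056, 1778 and 1254, with 2002, 2412 and 2278 under CMA alone (log2 change 2.94 (SE 0.17), adjusted p = 3.32e-08). Dusp7, which inactivates ERK, fell from 1300.0, 1132 and 1055 to 139.6, 147 and 289, with 84.1, 88.8 and 93.6 under CMA. In the clock, 7 of 16 genes were lower and 2 were higher, against the same shares of all genes. Among the lower ones were Nr1d1 (229, 202 and 169 against 25.9, 38.5 and 41.3) and Per1 (log2 change -1.53).

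Most genes of cholesterol synthesis fell. Of 24 tested members 16 were lower, where 10.5% of all genes were. The median log2 change of the 24 was -0.84, beside -0.51 with CMA alone and -0.33 with C-178 alone, all from the same unstimulated libraries. Without library 3 of the jointly treated cells this median was -0.57, with 15 members lower. The mean log2 level of the group was 8.62, 8.48 and 8.03 in jointly treated libraries 1, 2 and 3. Hmgcs1, which makes the precursor of mevalonate, stood at 1292, 1228 and 1442 normalised counts without stimulation and at 541, 569.7 and 541 with both compounds. Fdft1, the squalene synthase gene, stood at 508, 493 and 502 and at 208, 226 and 171. In both genes every jointly treated library was below every library of the other 3 groups, with log2 changes from no stimulation of -1.26 (SE 0.11) (adjusted p = 2.19e-06) and -1.32 (SE 0.14) (adjusted p = 8.52e-06). Against CMA alone 7 of the 24 were lower, where 13.5% of all genes were. With the 2 groups fitted alone, 10 of the 24 were lower than without stimulation. Abcg1, a cholesterol exporter under the sterol sensor LXR, rose from 2516, 2700.2 and 2703 to 5459.7, 6661 and 5542 (log2 change 1.15 (SE 0.11), adjusted p = 4.18e-06), while the 18 LXR targets as a group had 3 members higher and 3 lower (5 lower under quantile normalisation).

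**Figure D4:**
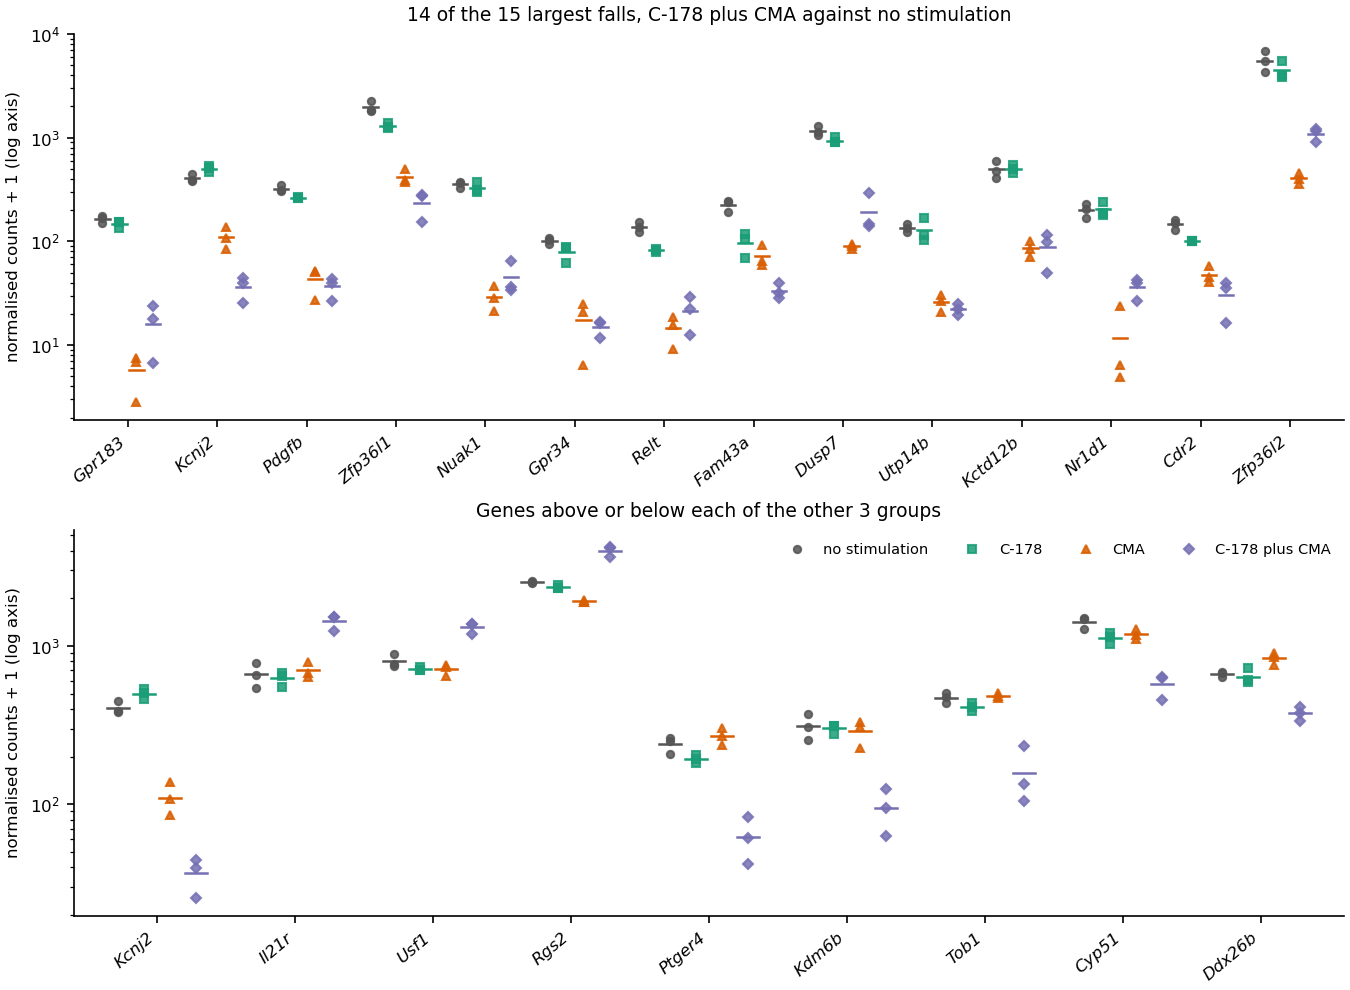
Normalised counts + 1 on a log axis in every library of the 4 groups, for 14 of the 15 largest falls (top) and for 9 genes that lay above or below each of the other 3 groups (bottom). Points are libraries and short bars are group means. With both compounds Zfp36l2 lies between no stimulation and CMA, while Ptger4, Kdm6b and Tob1 lie below all other groups.

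A few genes took a level with both compounds that none of the other 3 groups had. A gene was called here if it differed in 1 direction from each of the 3 groups, by the largest of the 3 p values after adjustment over all genes. This held for 3 genes above (0.0262% of those tested) and 7 below (0.0612%). Rgs2, which shortens G protein signals, stood at 4148, 4192 and 3664 normalised counts with both compounds, against 2528, 2501 and 2579.5 without stimulation, 2315, 2311 and 2422 with C-178 and 1946, 1909 and 1885 with CMA. Il21r, a cytokine receptor chain, stood at 1516, 1245 and 1522 and at 782, 656 and 544 without stimulation, and Usf1, a helix-loop-helix transcription factor, at 1384, 1189 and 1378 and 745, 772 and 885. No jointly treated library of these 3 genes overlapped with any other library, and the adjusted p over the 3 comparisons was 0.0241, 0.0226 and 0.0398 respectively. Below the other groups were Ptger4, Kdm6b, Kcnj2, Tob1, Cyp51, Ddx26b and 1 gene with a mean under 100 normalised counts. Ptger4, a prostaglandin E receptor whose signal raises cyclic AMP, stood at 41.1, 60 and 82.5, against 249, 208 and 259 without stimulation, 192, 182 and 203 with C-178 and 237, 300.0 and 269.8 with CMA (adjusted p over the 3 comparisons 0.0195). Kdm6b, a demethylase of histone H3 at the Polycomb mark, stood at 62, 124 and 93.2 and at 372, 307 and 252 without stimulation, and Kcnj2, an inward rectifier potassium channel, at 43.4, 38.5 and 24.4 and 385, 380.4 and 449.8. Tob1, an antiproliferative partner of the deadenylase complex, stood at 104, 231 and 133 and at 434, 474 and 501. These counts are small and moved much with the setting, from 0 to 141 above and from 0 to 128 below when 1 library at a time was left out, the highest of each without library 2 of the jointly treated cells, and to 29 and 24 with DESeq2.

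Energy metabolism showed smaller rises, for the respiratory chain not in every library. Of 19 glycolysis genes 6 were higher, where 11.1% of all genes were, among them Pfkfb3, which makes the activator of phosphofructokinase. Pfkfb3 stood at 1728, 1746 and 1677 normalised counts without stimulation and at 5109.6, 6781 and 3328 with both compounds (log2 change 1.50 (SE 0.20), adjusted p = 8.32e-05). Hk3, a hexokinase of myeloid cells, rose from 4519.5, 4882 and 4838 to 10131, 7785 and 7991. The change of Pkm (0.40, adjusted p = 0.0174) was lost under 7 of 26 alternatives and was -0.04 under quantile normalisation. Of 31 genes of the respiratory chain 8 were higher, with a median of 0.43. The mean log2 level of the 31 was 10.05, 9.55 and 10.1 in the jointly treated libraries. Library 2 thus lay within the unstimulated range of 9.5 to 9.55. The 43 tested genes of cytosolic ribosomal proteins had 1 member higher and a median of 0.30. The messages of both groups are short, and over all genes the change followed transcript length (Spearman's rho -0.23 across 11360 genes). With the trend in length and GC content removed, the medians were 0.22 and 0.10, with 8 respiratory members higher and 1 ribosomal member lower. With the 2 groups fitted alone, 3 glycolysis and 2 respiratory genes were higher.

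Stress pathways other than NRF2 showed isolated changes. In the integrated stress response 5 of 24 genes were higher and 4 lower, where 11.1% and 10.5% of all genes were. Ppp1r15a (GADD34), which restores translation, stood at 188, 182 and 201 normalised counts without stimulation, at 388, 516 and 428 with both compounds and at 5937, 5070.4 and 4763 with CMA alone. It thus lay slightly above the resting level (log2 change 1.21 (SE 0.13), adjusted p = 1.38e-05) and far below CMA (-3.57 (SE 0.13), adjusted p = 3.95e-09). Herpud1, of the degradation machinery of the endoplasmic reticulum, fell from 1018, 1092 and 1075 to 177.7, 158 and 382 and the chaperone gene Hspa5 rose by 0.70. The unfolded protein response had 2 of 17 members higher and 1 lower, and the heat shock chaperones 1 of 18 higher, Dnaja1 (0.78). These counts stand against the same shares of all genes. Lysosome and autophagy genes had 4 of 33 higher and 3 lower, near the 11.1% and 10.5% of all genes (1 and 2 with the 2 groups fitted alone, 2 and 9 under quantile normalisation). Tfeb, their activating factor, fell from 419, 458 and 416 to 195, 103 and 209, with 56, 35.5 and 34.9 under CMA alone.

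Of 26 inhibitory or activating myeloid receptors of the cell surface, CD300 proteins and Fc receptors among them, 5 were higher and 2 lower, where 11.1% and 10.5% of all genes were, with a median of -0.06. Without library 3 of the jointly treated cells 4 were lower. Fcgr1 and Fcgr4, activating receptors for IgG, rose by 2.31 and 1.49. Cd300lb fell from 2998, 3159 and 3408 to 824, 474 and 1051 normalised counts, and its relative Cd300lf rose from 366, 325 and 307 to 904, 718 and 688. CMA alone took Cd300lb to 137, 92.8 and 77.1, so that the jointly treated cells lay between the groups (-2.10 (SE 0.25) against no stimulation, adjusted p = 3.22e-05, and 2.89 (SE 0.25) against CMA, adjusted p = 1.15e-05). Of 22 Toll-like receptors and adaptors 7 were lower and 2 higher, where 10.5% and 11.1% of all genes were. The higher ones were Tlr3, the sensor of double-stranded RNA (421, 402 and 394 against 1415, 2477 and 1155), and the adaptor gene Myd88 (log2 change 0.96). In the group of matrix and cell shape genes 2 of 20 were higher, Mmp13 and Timp1, and 1, Plau, was lower, with a median of 0.14. These counts did not exceed the shares of all genes (11.1% and 10.5%). Without library 3 of the jointly treated cells 6 were higher and the median was 0.45. The mean log2 level of the group was 6.83 in library 3 and 7.64 and 7.90 in libraries 1 and 2, against 7.01 to 7.21 without stimulation.

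**Figure D5:**
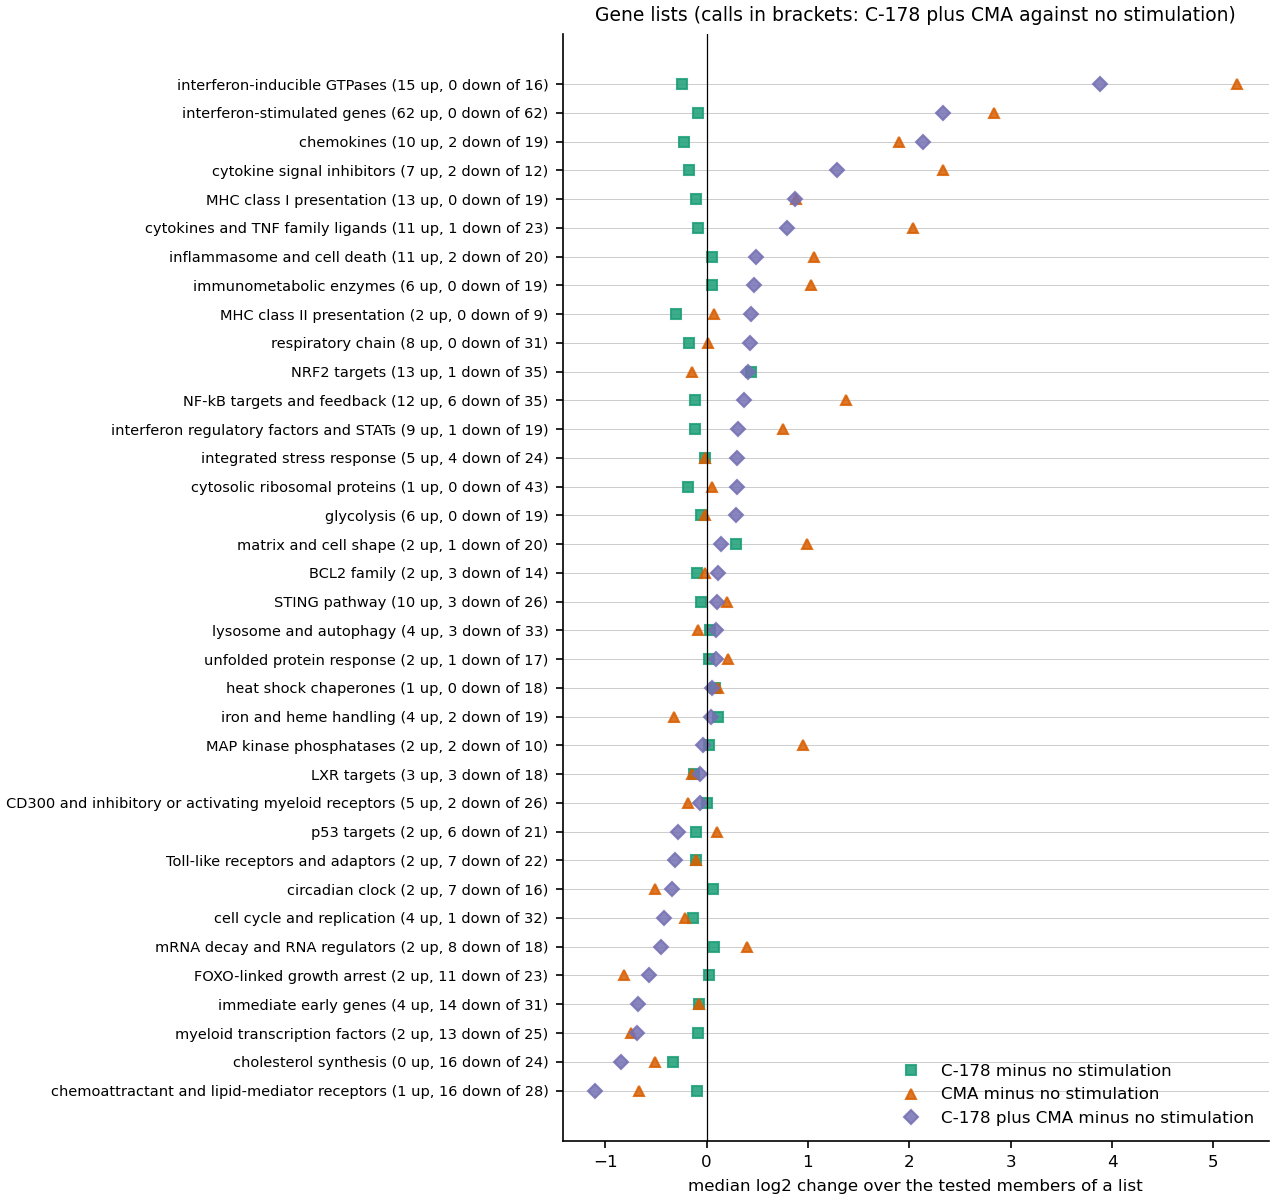
Median log2 change over the tested members of each gene group, for C-178, CMA and C-178 plus CMA against the same unstimulated libraries. The brackets give calls for C-178 plus CMA. With both compounds the interferon-inducible GTPases lie at 3.88, the NF-κB group at 0.37, and the chemoattractant receptors at -1.10.

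Of the 24 tested macrophage markers 2 were higher, the Fc receptor gene Fcgr1 and Lgals3, and 3 were lower, Cd14 and Spi1 among them, near the 11.1% and 10.5% of all genes. Under quantile normalisation 6 were lower. Of the fibroblast, neutrophil and lymphoid markers 1 each was called, and these 3 genes, Thy1, Cxcr2 and Cd79b, were lower. The neutrophil markers summed to 2824 to 3603 normalised counts without stimulation and to 2332 to 3013 with both compounds, and the dendritic cell markers to 177.9 to 207 and 144 to 208. The 7 endothelial markers summed to 937 to 1087 and 542 to 1232, with 1 of the 5 tested members, Kdr, higher.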

How the data were processed

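RNA was sequenced with a stranded mRNA kit, per the labels. The deposited table holds a signal per gene, taken as read counts divided by size factors; its header has the layout of a DESeq2 result, so this is inferred and not stated by the authors. Per the submitters' processing notes, mm10, Bowtie2 2.2.1 and limma 3.18.13 were used. The sources used here do not name the annotation, the counter or its strand setting. Another 12 columns, with Cook's distances, were left out. Of 24062 entries, 27 carry names turned into dates and were not named. Values were whole multiples of a step, to within 0.01 read plus 1e-07 of the read count, in 100% of cases, which gave the reads used for edgeR and DESeq2. On these, edgeR called 1506 genes higher and 1262 lower with C-178 plus CMA than without stimulation, and DESeq2 1626 and 1363.

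A gene was tested if 3 or more of the 12 libraries exceeded 10 normalised counts, which left 11440. Log2 of value + 1 was fitted over all 12 libraries with limma 3.58.1 under R 4.3.3 (eBayes with trend), and p values were adjusted by Benjamini and Hochberg, with calls under 0.05. Changes on this scale understate those of genes with few reads. The code was tested on simulated data. Alternatives were edgeR 4.0.16, DESeq2 1.42.0, other scalings, filters, pseudocounts and weights, fewer libraries and, chosen after seeing the data, removal of a length and GC trend. Genes named are the 15 largest rises and falls without overlap and with a mean of at least 100 in the higher group, up to 4 called members per gene group with the smallest adjusted p, up to 8 genes above and 8 below the other groups, the 8 of widest spread and 22 fixed genes; members named without values were chosen after their calls were seen. The members, gene groups and rules were chosen with earlier results of these data known. Library numbers correlated in deviations between C-178 and C-178 plus CMA (0.45, 0.43 and 0.26), so these were taken as paired in an alternative, and not between CMA and C-178 plus CMA (-0.14, 0.18 and -0.16). Coordinates are from GENCODE M21 (GRCm38). Floors cover counting error only. Values of a few genes are not reported here.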

Additional observations from a re-analysis of the deposited data

How the results depend on the processing

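Of 161 named genes called in C-178 plus CMA against no stimulation, 147 kept call and direction under all 26 alternatives, and 14 lost the call under some (Tnf, Nfkbia, Tnfaip3, H2-Eb1, Pmaip1, Gclm, Sqstm1, Syvn1, Dusp16, Pkm, Ndufa9, Sdhc, Rplp0 and Timp1). Most named genes were picked for large changes or small adjusted p values, which makes a call easier to keep. Of all genes called, 61.4% kept call and direction with only the 2 groups fitted and 70.5% with group weights. The change of Pkm turned to -0.04 under quantile normalisation. With only the 2 groups fitted, C-178 plus CMA against no stimulation gave 809 genes higher and 722 lower, with CMA as the other group 261 and 593, and with C-178 738 and 600. With group weights the numbers against CMA were 527 and 929 and against C-178 971 and 791. With 1 library left out, genes lower than without stimulation numbered 762 to 1672, genes higher and lower than with CMA 597 to 2179 and 747 to 2532, and genes lower than with C-178 885 to 2067; the lowest were without unstimulated library a, CMA library 2 and C-178 library 2, and the highest without jointly treated library 2. Genes above all other groups (3) numbered 29 with DESeq2, 1 with quantile normalisation, 0 without a mean-variance trend, 5 with library weights, 0 with group weights, 6 with the length and GC trend removed and 0 to 141 with 1 library left out. Genes below all other groups (7) numbered 24, 0 without the trend, 2 with group weights, 11 with the length and GC trend removed and 0 to 128 with 1 left out. A filter at 50 normalised counts moved the median of the chemokines to 3.81 and of the cytokines to 1.26. No paired analysis was possible because the unstimulated columns carry only 1 certain number. With the replicate block, 284 genes were higher and 747 lower than with CMA, whose numbers did not pair, and 1563 and 1460 than with C-178; the block changed no call against C-178 named here. Depth of 7.766 M and 8.813 M reads in 2 jointly treated libraries limits genes with few reads.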
